A study of Mus musculus with 18 samples.

Results

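The nigral libraries of all mice given 6-hydroxydopamine (6-OHDA), whether or not they also received TUG469, were set as 1 side against the nigral libraries of mice given phosphate-buffered saline (PBS). The injected side held 6 of the 18 libraries of the study: 6-OHDA 2, 3 and 4 and TUG469 1, 2 and 4, named by their labels and numbers. The PBS side held 3 libraries, PBS 1, 2 and 3. The other 9 libraries came from the striatum and served only to show where the nigra differed. All mice were labelled wild type (C57BL6) and the time 3 weeks. The 6-OHDA group had 4 µg of 6-OHDA in the striatum and PBS by intraperitoneal injection, the TUG469 group the same toxin with TUG469 by intraperitoneal injection at 10 mg/kg per day, and the PBS group PBS by both routes. The side of the brain sampled, and whether a library came from 1 mouse or a pool, are not stated by the labels, so the p-values measure the spread between these libraries.

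6-OHDA enters dopamine neurons through their transporters and destroys them, and from the striatum it reaches the cell bodies in the substantia nigra backward along the axons. TUG469 is an agonist of GPR40, a receptor for free fatty acids. Around the dopamine neurons the nigra holds inhibitory neurons, astrocytes, microglia and many oligodendrocytes, the cells that wrap axons in cholesterol-rich myelin. Bulk RNA from such tissue does not tell fewer cells of a type from less RNA per cell.

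Total counts of the 9 nigral libraries lay between 51665747 and 61933756, and 19686 genes were tested. Levels are given as CPM (counts scaled to a common library size with TMM factors), and changes as log2 injected minus PBS with the standard error (SE) of edgeR's quasi-likelihood fit. A gene was called where its Benjamini-Hochberg adjusted p was below 0.05. Of all counts, 6.71% to 7.95% in injected libraries and 6.49% to 6.93% in PBS libraries came from the 13 protein-coding mitochondrial genes (exact two-sided permutation test over libraries, p = 0.0714, adjusted p = 0.0714 over 2 measures).

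The defining transcripts of dopamine neurons were not low in every injected library. Slc6a3, the dopamine transporter, was at 66.8, 44.6 and 52.5 CPM in libraries labelled 6-OHDA, at 12.3, 16.8 and 11.8 CPM in libraries labelled TUG469, and at 70.1, 53.3 and 49.1 CPM in PBS libraries. Th, the rate-limiting enzyme of dopamine synthesis, was at 61.5, 42.6 and 50.1 CPM in libraries labelled 6-OHDA, at 17.9, 20.8 and 12.6 CPM in those labelled TUG469, and at 38.4, 25.4 and 35.6 CPM in PBS libraries. Both transcripts were low in the 3 libraries labelled TUG469 only, and the 6-OHDA libraries overlapped PBS for Slc6a3 and lay above it for Th. Over all 6 injected libraries Slc6a3 fell (log2 change −1.07, SE 0.154, adjusted p = 0.0219 by edgeR), and Th did not pass (log2 change −0.16, SE 0.176, adjusted p = 0.649). Of 20 genes of dopamine neurons, 7 had positive and 13 negative changes (median −0.06), and 1 was called, Slc6a3. An unadjusted p below 0.05 was held by 2, against 20.1% of all genes. DESeq2 called 2, against 9.86% of genes to which it gave an adjusted p. The list's median log2 change from PBS was 0.37 in 6-OHDA and −0.50 in TUG469 libraries. Its mean log2(CPM + 0.5), relative to the PBS mean, was 0.104 to 0.586 in 6-OHDA and −0.825 to −0.137 in TUG469 libraries. PBS libraries lay at −0.084 to 0.068. Pooling makes the injected side independent of which of its groups had the drug, but it does not mean that all 6 libraries show a loss of these transcripts.

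The libraries also stood apart in transcripts of neighbouring regions. Oxt, oxytocin, was at 33.8 and 18.3 CPM in PBS 1 and PBS 3, against 0.593 CPM in PBS 2, and between 0.114 and 1.07 CPM in the 6 injected libraries. Avp, vasopressin, split the PBS libraries in the same way, with 22.9, 0.445 and 12.6 CPM in PBS 1, 2 and 3. Pmch, a peptide of lateral hypothalamic neurons, was at 94.0 CPM in TUG469 4 and at most 7.71 CPM in the other 5 injected libraries, against 142, 0.871 and 89.3 CPM in PBS 1, 2 and 3. Pooled over the injected libraries, Oxt and Avp were called lower (log2 changes −5.59 and −4.68, adjusted p = 0.0276 and 0.0396 by edgeR), but PBS 2 lay among the injected libraries for both. Genes of the thalamus list (9 of 9 negative, median log2 change −0.47, 0 called by edgeR or DESeq2, 1 with an unadjusted p below 0.05) had list levels of −1.54 to 0.341 in injected libraries and −0.432 to 0.330 in PBS libraries, as mean log2(CPM + 0.5) relative to the PBS mean. The part of dissection in the results below was not tested.

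**Figure D1:**
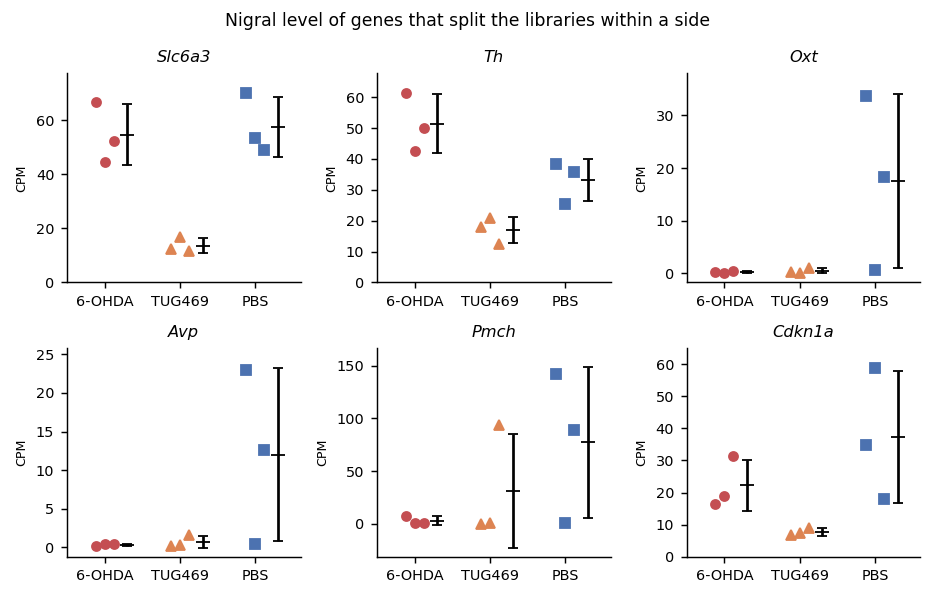
CPM of 6 transcripts in each nigral library (points) by group, with the mean and SD of the 3 libraries beside them (bar). Slc6a3 and Th are low in the TUG469 libraries only; Oxt and Avp are high in PBS 1 and PBS 3 only; Pmch is high in those and in TUG469 4; Cdkn1a, a glucocorticoid-responsive gene, runs from 18.1 to 58.8 CPM among PBS libraries.

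Against this background, 271 genes were called between the injected and PBS libraries, 1.38% of those tested. Of these, 41 were higher in injected libraries (0.208%) and 230 were lower (1.17%). An unadjusted p below 0.05 was held by 20.1% of the tested genes, 8.68% higher and 11.4% lower, and DESeq2, run as an alternative, called 9.86% of the genes to which it gave an adjusted p, 3.42% higher and 6.45% lower; counts in the gene lists below are to be read against these shares. All 271 had the same sign in 6-OHDA and in TUG469 libraries against PBS. A gene was taken as consistent in both injected groups where it was called, each group differed from PBS with an unadjusted p below 0.05, and all 6 injected libraries lay on 1 side of all 3 PBS libraries. This held for 259 genes, 40 higher (0.203% of genes tested) and 219 lower (1.11%), of which 246 were protein coding. Without regard to any p, 10.5% of all tested genes had injected libraries that did not overlap PBS, 4.42% with all 6 above and 6.12% with all 6 below. The 12 called genes that were not consistent included Slc6a3, Oxt, Avp, Cdkn1a, Fosl2 and Gjb6.

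Both groups share the PBS libraries, so their values are given side by side and the same sign in both is no independent repeat. Among the higher genes the median log2 change was 0.36 in 6-OHDA libraries and 0.60 in TUG469 libraries, and among the lower ones −0.28 and −0.35. The change was larger in TUG469 libraries for 222 of the 259 genes, but for none did TUG469 differ from 6-OHDA after adjustment. Alone, 6-OHDA libraries differed from PBS in 1 gene (0.00508% of those tested), Megf9, while TUG469 libraries differed in 364 genes (1.85%). In the authors' deposited table of 20897 genes, 430 passed in 6-OHDA against PBS and 1505 in TUG469 against PBS. Of the genes passing in both, 70 were higher in both, 241 lower in both and 1 had opposite signs. Of the 259 consistent genes, 196 passed in both comparisons, with the same shared PBS libraries.

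The count rested on every library. With 1 library left out, 1 gene was called without PBS 1, 61 without PBS 2, 439 without PBS 3, 69 without 6-OHDA 2, 170 without 6-OHDA 3, 16 without 6-OHDA 4, 60 without TUG469 1, 3 without TUG469 2 and 575 without TUG469 4. Megf9 was the only consistent gene called in all 9 of these fits.

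**Figure D2:**
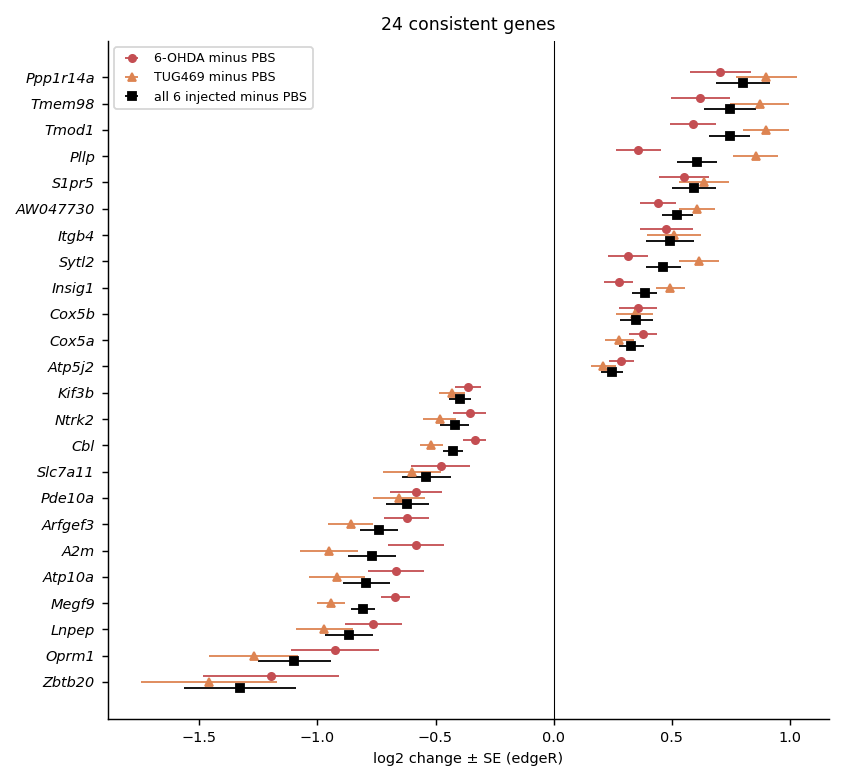
Log2 change ± SE for 24 consistent genes described in the text, for 6-OHDA minus PBS, TUG469 minus PBS, and all 6 injected libraries minus PBS; the genes are ordered by the last of these. Both groups lie on the same side of 0 for each gene, and Megf9 has a pooled change of −0.81 with an SE of 0.0507.

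The transcripts that fell in injected libraries included genes of membranes, trafficking and neuronal signalling. Megf9 codes for a transmembrane protein whose outer part carries EGF repeats (GRCm38 chromosome 4, 70431927 to 70534928, gene 230316). It was at 39.0, 39.9 and 35.7 CPM in 6-OHDA libraries, at 32.6, 31.4 and 30.9 CPM in TUG469 libraries, and at 63.0, 61.0 and 58.3 CPM in PBS libraries. Its lowest PBS library lay well above its highest injected one. The injected level was 34.9 ± 3.91 CPM (SD, n = 6) against 60.8 ± 2.39 CPM in PBS (SD, n = 3), a log2 change of −0.81 (SE 0.0507, adjusted p = 0.000372 by edgeR). Across the 9 fits without 1 library it stayed between −0.84 and −0.78.

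Oprm1, the mu opioid receptor, was at 3.94, 3.13 and 2.98 CPM in 6-OHDA libraries, at 3.01, 2.12 and 2.77 CPM in TUG469 libraries, and at 6.61, 5.17 and 7.31 CPM in PBS libraries (log2 change −1.10, SE 0.155, adjusted p = 0.0218 by edgeR). The highest injected library stayed below the lowest PBS library. Zbtb20, a zinc finger repressor, had the largest fall among consistent genes (log2 change −1.33, SE 0.237, adjusted p = 0.0352 by edgeR), from libraries that spread widely, 7.31 to 14.1 CPM in injected and 17.6 to 31.6 CPM in PBS. Zbtb20 lost its call in both trend removals described below (adjusted p = 0.0889 and 0.127 by edgeR). Oprm1 lost it only with GENCODE length and GC content removed (adjusted p = 0.0502 by edgeR).

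Lnpep, an aminopeptidase that cleaves oxytocin and vasopressin and travels with insulin-regulated vesicles, was at 15.4 to 23.9 CPM in the 6 injected libraries and at 33.7 to 37.2 CPM in PBS libraries. Its log2 change was −0.87 (SE 0.101, adjusted p = 0.0169 by edgeR). Kif3b, a motor subunit of kinesin-2, was at 51.1 to 57.4 CPM in injected and 68.1 to 73.3 CPM in PBS libraries (log2 change −0.40, SE 0.0461, adjusted p = 0.0169 by edgeR). Atp10a, a flippase that moves phospholipids across membranes, was at 16.2 to 21.8 CPM in injected and 26.2 to 34.1 CPM in PBS libraries. A2m, the protease inhibitor alpha-2-macroglobulin, was at 11.2 to 18.8 CPM in injected and 22.1 to 24.1 CPM in PBS libraries. Arfgef3, a protein related to the exchange factors of Arf GTPases, had 27.0 to 36.4 CPM in injected and 47.7 to 58.7 CPM in PBS libraries. None of these overlapped, and their adjusted p-values by edgeR were 0.0207 for Atp10a and A2m and 0.0164 for Arfgef3. With GENCODE length and GC content removed, as described below, Arfgef3 was not called (adjusted p = 0.0533 by edgeR).

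Called genes of signalling and transport fell as well, though none of those named here kept its call in the trend removals described below. Ntrk2, the receptor of the neurotrophic factor BDNF, was at 595 to 717 CPM in injected and 792 to 931 CPM in PBS libraries (log2 change −0.42, SE 0.0602, adjusted p = 0.0219 by edgeR), and was the only called gene of 13 neurotrophic factors and receptors. Slc7a11, the cystine and glutamate exchanger, was the only called gene of 19 antioxidant genes and targets of NRF2 (log2 change −0.54, adjusted p = 0.0426 by edgeR). Of these 19, 9 had positive and 10 negative changes (median −0.000287), and DESeq2 called 2 higher and 1 lower. Pde10a, a phosphodiesterase abundant in striatal projection neurons, fell by 0.62 on the log2 scale (adjusted p = 0.0236 by edgeR). It was the only called gene of 13 genes of that cell type, of which 11 had negative changes (median −0.19). PBS 1 stood high for this list, with a level of 0.373 relative to the PBS mean, against −0.332 to −0.218 in injected libraries and −0.139 and −0.233 in PBS 2 and PBS 3. Without PBS 1, 7 of the 13 were negative, the median was −0.09 and Pde10a was not called (log2 change −0.46, adjusted p = 0.167 by edgeR). Gpr17, a receptor of differentiating oligodendrocytes, fell by 0.49 on the log2 scale (adjusted p = 0.0304 by edgeR). It was the only called gene of 10 precursor genes, of which 7 had positive changes (median 0.09). In the trend removals described below, its adjusted p by edgeR was 0.125 with length and 0.126 with GENCODE length and GC content.

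**Figure D3:**
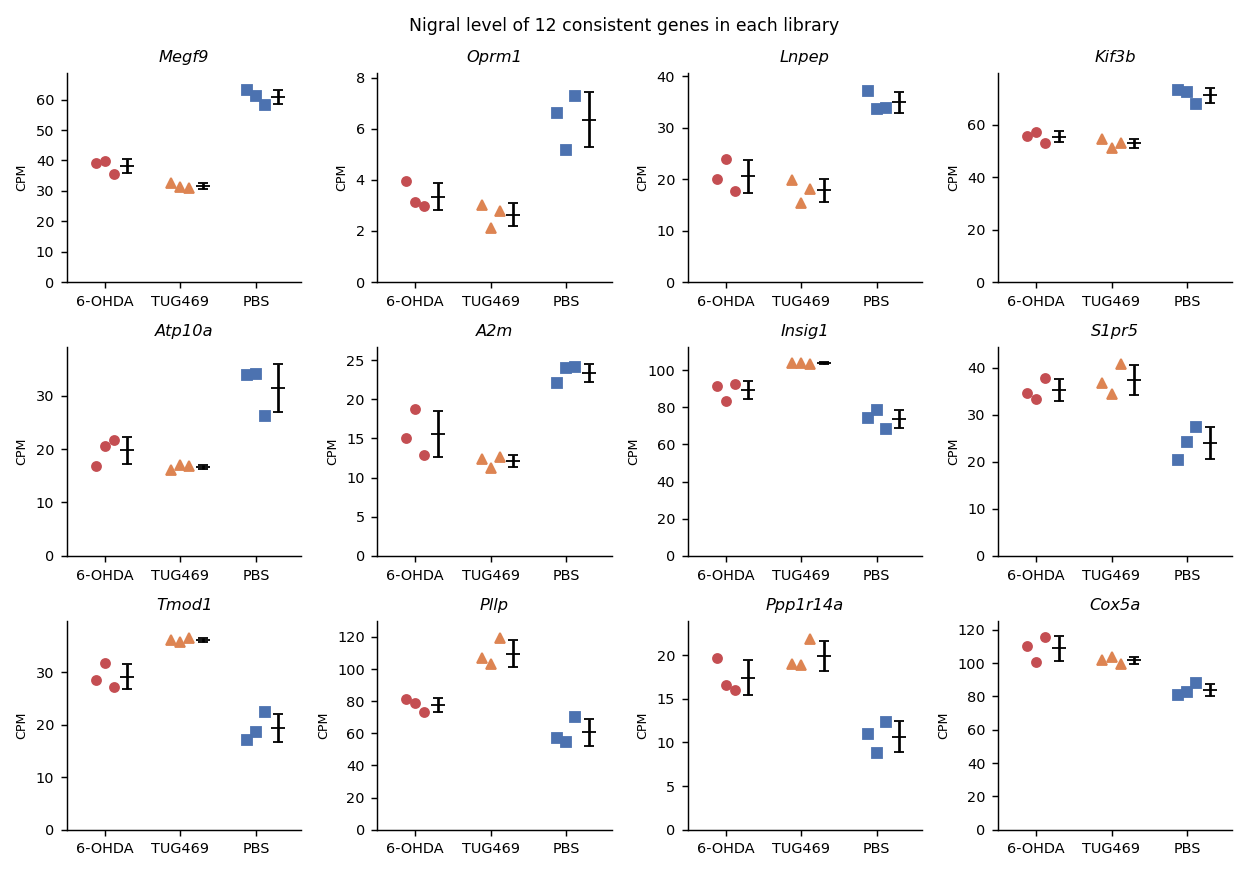
CPM of 12 consistent genes in each nigral library (points) by group, with the mean and SD of the 3 libraries beside them (bar). In each panel all 6 injected libraries lie on 1 side of the 3 PBS libraries, below them in the first 6 panels and above them in the last 6.

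Among the transcripts that rose were several known from oligodendrocytes. Pllp, plasmolipin, a membrane protein of myelin, was at 81.4, 78.6 and 73.2 CPM in 6-OHDA libraries, at 107, 103 and 119 CPM in TUG469 libraries, and at 57.2, 54.6 and 69.9 CPM in PBS libraries (log2 change 0.61, SE 0.0842, adjusted p = 0.0218 by edgeR). PBS 3 came close to the lowest injected library. S1pr5, the sphingosine-1-phosphate receptor of oligodendrocytes, was at 33.3 to 40.8 CPM in injected and 20.4 to 27.3 CPM in PBS libraries (log2 change 0.59, SE 0.0945, adjusted p = 0.0276 by edgeR). Tmem98, a membrane protein that holds back the myelin gene regulator Myrf, was at 13.6 to 17.6 CPM in injected and 7.98 to 11.3 CPM in PBS libraries. Pllp, S1pr5 and Tmem98 kept their direction but lost the call in both trend removals described below. With length removed, their adjusted p-values by edgeR were 0.0574, 0.071 and 0.0745, and with GENCODE length and GC content 0.0642, 0.104 and 0.0929.

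Others bear on the cytoskeleton. Ppp1r14a, an inhibitor of myosin phosphatase, was at 16.0 to 21.9 CPM in injected and 8.80 to 12.3 CPM in PBS libraries (log2 change 0.80, SE 0.114, adjusted p = 0.0219 by edgeR). Tmod1, tropomodulin, which caps actin filaments, was at 27.3 to 36.5 CPM in injected and 17.1 to 22.4 CPM in PBS libraries (log2 change 0.74, SE 0.0871, adjusted p = 0.0169 by edgeR). Itgb4, the integrin beta-4 subunit, rose by 0.49 on the log2 scale, with PBS 3 at 32.0 CPM, nearer to the injected libraries than PBS 1 and PBS 2. Ppp1r14a and Itgb4 lost the call in both trend removals described below, while Tmod1 kept it in both.

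The list of mature oligodendrocyte and myelin genes had 15 of 16 positive changes with a median log2 change of 0.26, where the median of all genes was 0.00, but 0 of the 16 were called by edgeR and 9 had an unadjusted p below 0.05. DESeq2 called 6 of them. Gjb1, the connexin of oligodendrocytes, was nearest to the threshold (log2 change 0.68, adjusted p = 0.0643 by edgeR), and Opalin had 0.80 (adjusted p = 0.0741). The list's mean log2(CPM + 0.5), relative to the PBS mean, was 0.164 to 0.552 in injected libraries and −0.177 to 0.255 in PBS libraries, with PBS 3 inside the injected range. Without PBS 3, edgeR called 7 of the 16, and without PBS 2 it called 0. In the striatum the median of the same list was −0.08.

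Among genes of sterol supply, Insig1 rose. Insig1 holds the regulators of sterol genes in the endoplasmic reticulum and is itself a target of those regulators. Insig1 was at 91.6, 83.4 and 92.3 CPM in 6-OHDA libraries, at 104, 104 and 103 CPM in TUG469 libraries, and at 73.9, 78.4 and 68.4 CPM in PBS libraries (log2 change 0.39, SE 0.0543, adjusted p = 0.0218 by edgeR). The 6-OHDA libraries lay between the other groups. It was 1 of 2 called genes of the 22 in the cholesterol list, of which 21 had positive changes with a median of 0.19. Hmgcs1, an early enzyme of the pathway, was at 241 to 311 CPM in injected and 210 to 256 CPM in PBS libraries and did not pass (log2 change 0.20, SE 0.0693, adjusted p = 0.154 by edgeR).

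The promoter windows of Insig1, which was called, and Hmgcs1, which was not, are shown because sterol-responsive promoters are known to pair sterol regulatory elements with CCAAT boxes. They are RefSeq windows of GRCm38.p6, from 250 bases before to 50 after the start of the gene, both on the plus strand, at chr5:28071162-28071461 for Insig1 and chr13:119690101-119690400 for Hmgcs1. Capitals mark CCAAT on either strand (ATTGG on the strand shown) and TCACNCCAC, the core letters of a sterol regulatory element, on either strand; no marked motifs overlap.
Insig1: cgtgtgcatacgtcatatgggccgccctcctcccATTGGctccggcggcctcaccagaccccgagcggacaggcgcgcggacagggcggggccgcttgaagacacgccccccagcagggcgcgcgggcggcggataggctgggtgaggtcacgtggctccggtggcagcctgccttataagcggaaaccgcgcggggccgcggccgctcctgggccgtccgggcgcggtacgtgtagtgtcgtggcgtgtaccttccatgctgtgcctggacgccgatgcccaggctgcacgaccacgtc
Hmgcs1: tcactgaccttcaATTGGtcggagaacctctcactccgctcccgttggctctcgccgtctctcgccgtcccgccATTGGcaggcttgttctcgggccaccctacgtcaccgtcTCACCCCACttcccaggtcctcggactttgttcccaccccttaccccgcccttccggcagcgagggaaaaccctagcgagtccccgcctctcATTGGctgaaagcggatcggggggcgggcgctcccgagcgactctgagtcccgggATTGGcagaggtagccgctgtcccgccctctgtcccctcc
CCAAT stood 1 time in the Insig1 window and 4 times in that of Hmgcs1. It was found in 16 of the 19 windows held for 16 of the 22 cholesterol genes (84.2%), and in 37.4% of all 32851 windows. TCACNCCAC was found 1 time, in the Hmgcs1 window, and in 1.24% of all windows. These are matches of letters and not measured sites.

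Genes of the respiratory chain, which passes electrons to oxygen and drives ATP synthesis in mitochondria, had small positive changes. All 37 nuclear genes of complex I were positive (median log2 change 0.17, 0 called by edgeR, 29 with an unadjusted p below 0.05, 14 called by DESeq2), and in 22 of them all injected libraries lay above all PBS libraries, against 4.42% of all genes. All 37 genes of complexes II to V were positive as well (median 0.17), and 3 were called. Cox5a, a subunit of cytochrome c oxidase, was at 110, 101 and 115 CPM in 6-OHDA libraries, at 102, 104 and 99.3 CPM in TUG469 libraries, and at 80.7, 82.7 and 88.0 CPM in PBS libraries (log2 change 0.33, SE 0.0529, adjusted p = 0.0276 by edgeR). Cox5b, another subunit, was at 138 to 164 CPM in injected and 111 to 124 CPM in PBS libraries (log2 change 0.35, adjusted p = 0.0440), and Atp5j2, of the ATP synthase, at 80.1 to 89.9 CPM and 66.4 to 71.1 CPM (log2 change 0.25, adjusted p = 0.0387). Of 35 genes of the mitochondrial ribosome, all were positive and 1, Mrps24, was called. The 13 genes of the mitochondrial genome were all positive (median 0.15) with 0 called by edgeR, 2 by DESeq2 and 7 at an unadjusted p below 0.05. Of 50 genes of the cytosolic ribosome 47 were positive (median 0.11, 0 called by edgeR, 5 by DESeq2, 20 at an unadjusted p below 0.05), and of 31 proteasome genes 27 (median 0.06, 0 called by edgeR, 2 by DESeq2, 6 at an unadjusted p below 0.05).

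Complex I transcripts are short, with a median length of 849 bases, and length moved with the contrast. The length of each gene, taken from its counts and FPKM, had a Spearman rho of −0.361 with the log2 change across the 19686 genes, which are not independent. Of the 219 consistent lower genes, 187 were among the 4922 longest genes (5175 bases or more), of which 3.98% were called, against 0.427% of the 4922 shortest. The median length was 2116 bases for the consistent higher and 8754 bases for the consistent lower genes. In each library, the rho of length with the gene's deviation from its mean level was −0.281 to 0.0332 in injected libraries and 0.236 to 0.308 in PBS libraries, with no overlap (exact two-sided permutation test over 6 and 3 libraries, p = 0.0238, adjusted p = 0.0476 over 2 measures, the smallest p these numbers allow being 0.0238). The length trend and the groups cannot be told apart in these libraries.

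With the trend of length removed from each library, 19 genes were called, 7 higher (36.8%) and 12 lower, where 15.1% had been higher before. Of these 19, 18 were consistent, each among the 259. A second removal, with GENCODE length and GC content, left 13 consistent genes. In both, 10 genes stayed consistent, 5 in each direction: AW047730, Insig1, Sytl2 and Tmod1 were among the higher, and A2m, Atp10a, Kif3b, Lnpep and Megf9 were lower. AW047730 is a long non-coding RNA at 19.2 to 23.9 CPM in injected and 14.8 to 16.4 CPM in PBS libraries, and Sytl2, chosen here after its values were seen, encodes a protein of vesicle tethering at 45.8 to 61.0 CPM in injected and 34.2 to 42.8 CPM in PBS libraries. The called genes of the respiratory chain and Mrps24 lost their call in both removals. Cox5a had a log2 change of 0.21 with the length trend removed and 0.31 with GENCODE length and GC removed (adjusted p = 0.157 and 0.111 by edgeR), against 0.33 before. Cox5b had 0.22 and 0.29, against 0.35 before, and Atp5j2 0.12 and 0.22, against 0.25 before.

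The mitochondrial, ribosomal and proteasome lists were also read with the trends removed. With the length trend removed, 35 of the 37 complex I genes were positive with a median of 0.06, and 36 with a median of 0.115 with GENCODE length and GC removed. For complexes II to V the counts were 34 and 35 of 37, with medians of 0.05 and 0.10, and for the mitochondrial ribosome 27 and 33 of 35, with medians of 0.06 and 0.10. The cytosolic ribosome had 25 and 34 of 50 positive, with medians of 0.00 and 0.02, and the proteasome 14 and 22 of 31, with medians of −0.00282 and 0.03. The genes of the mitochondrial genome had 11 of 13 positive with a median of 0.03 with the length trend removed. Their names had no GENCODE match, so the GENCODE removal took no trend from them. Their 13 of 13 positive changes and median of 0.15 in that fit are the unadjusted ones and do not test them. No gene of these lists was called by edgeR in either removal.

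**Figure D4:**
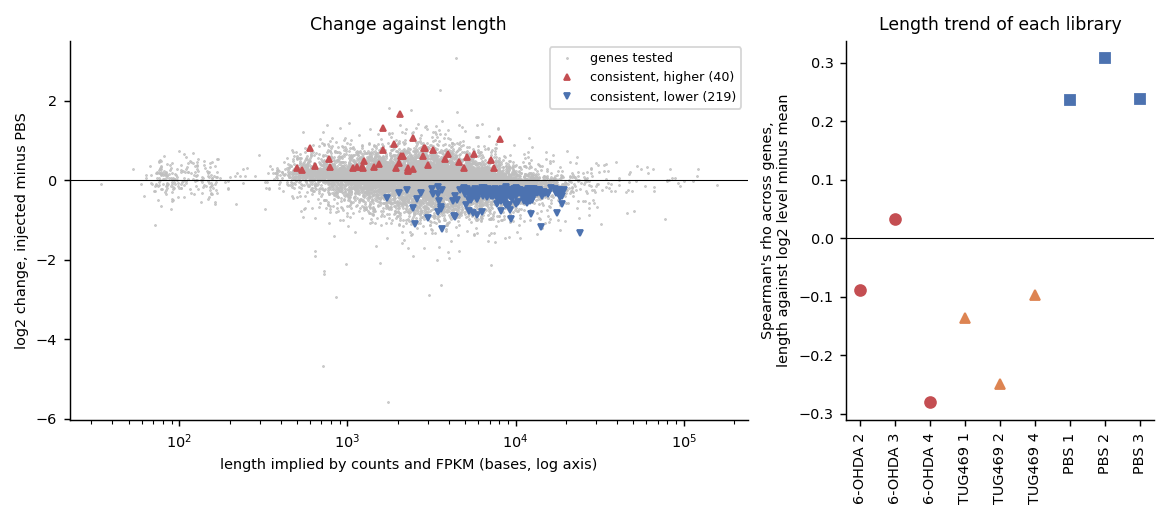
Left, log2 change injected minus PBS against the length implied by counts and FPKM (log axis) for each tested gene, with the 40 consistent higher and 219 consistent lower genes marked; the lower genes crowd at lengths above 5175 bases, as 187 of the 219 do. Right, Spearman's rho across genes of length with each library's deviation from the mean log2 level; the 6 injected libraries lie between −0.281 and 0.0332 and the 3 PBS libraries between 0.236 and 0.308.

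Ubiquitin ligases, which mark proteins for degradation, are mostly long genes. Of 16 ligases and adaptors, all were negative (median log2 change −0.22) and 6 were called lower, but with the length trend removed 5 were positive and none was called, and with GENCODE length and GC removed 7 were positive and none was called. Cbl, a ligase that ends signalling by receptor kinases, was at 71.4 to 85.9 CPM in injected and 105 to 108 CPM in PBS libraries (log2 change −0.43, SE 0.0423, adjusted p = 0.00923 by edgeR). Trip12, Herc2 and Mycbp2 changed by −0.29, −0.32 and −0.24. Bsn, the presynaptic scaffold bassoon, was the only called gene of 24 synaptic genes (log2 change −0.36, adjusted p = 0.0498 by edgeR), and Vps13c, a lipid transfer protein, the only one of 13 familial Parkinson's disease genes (log2 change −0.21, adjusted p = 0.0475); both lost the call with either trend removed.

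Glucocorticoid-responsive genes split the PBS libraries. All 12 tested had negative changes (median −0.71), 8 with an unadjusted p below 0.05, and DESeq2 called 4 lower. By edgeR 1, Cdkn1a, the cell cycle inhibitor p21, was called (log2 change −1.51, SE 0.307, adjusted p = 0.0484 by edgeR). It was at 16.5, 18.9 and 31.4 CPM in 6-OHDA libraries, at 6.75, 7.50 and 8.93 CPM in TUG469 libraries, and at 34.8, 58.8 and 18.1 CPM in PBS libraries. PBS 3 lay inside the 6-OHDA range. The level of the list was −0.688, −0.373 and 0.056 in 6-OHDA libraries, −1.409 to −0.910 in TUG469 libraries, and 0.217, 0.571 and −0.788 in PBS 1, 2 and 3, so that only the TUG469 libraries lay below every PBS library. The median of the list was −0.35 without PBS 2 and −1.07 without PBS 3, and in the striatum it was −0.77. The 5 tested genes of blood were negative too (median −1.92, 0 called by edgeR, 2 by DESeq2, 5 with an unadjusted p below 0.05), with Hbb-bs at 0.609 to 5.58 CPM in injected and 7.47 to 20.8 CPM in PBS libraries; haemoglobin genes have near-identical copies, among which reads may be split.

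The lists of inflammation held no gene called by edgeR. Antigen presentation genes, which display peptides to T cells, were positive in 12 of 14 cases (median 0.22, 0 called by edgeR or DESeq2, 5 with an unadjusted p below 0.05). Of 10 tested genes of the NLRP3 inflammasome, the study's candidate pathway, 5 were positive and 5 negative (median 0.01, 0 called by edgeR, 3 with an unadjusted p below 0.05), and DESeq2 called P2rx7, an ATP-gated channel upstream of the inflammasome, higher (log2 change 0.41, adjusted p = 0.0257). Nlrp3 itself was at 0.374 to 0.978 CPM in injected and 0.797 to 0.953 CPM in PBS libraries (log2 change −0.48, SE 0.273, adjusted p = 0.350 by edgeR). Casp1 had a log2 change of 0.31 (SE 0.247) and Pycard of 0.08 (SE 0.269). Of 17 homeostatic and 16 activated microglia genes, 6 and 12 were positive and 0 were called by edgeR or DESeq2, with 3 and 2 at an unadjusted p below 0.05. Of 19 interferon response genes 13 were positive, 2 with an unadjusted p below 0.05, and of 13 cytokine, chemokine and TNF signalling genes 7 were positive, 3 with an unadjusted p below 0.05; DESeq2 called 1 gene higher in each of these lists, Xaf1 and Il33. These DESeq2 calls were singled out after their values were seen. Gfap, the filament protein of astrocytes, was at 178 to 231 CPM in injected and 227 to 249 CPM in PBS libraries (log2 change −0.20, SE 0.0789, adjusted p = 0.201 by edgeR), and of 18 reactive astrocyte genes 14 were negative and 0 called by edgeR (5 at an unadjusted p below 0.05). DESeq2 called 3 of the 18 lower, C4b, Cp and Fkbp5, the last also a glucocorticoid-responsive gene, and edgeR called 2 lower without PBS 3.

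**Figure D5:**
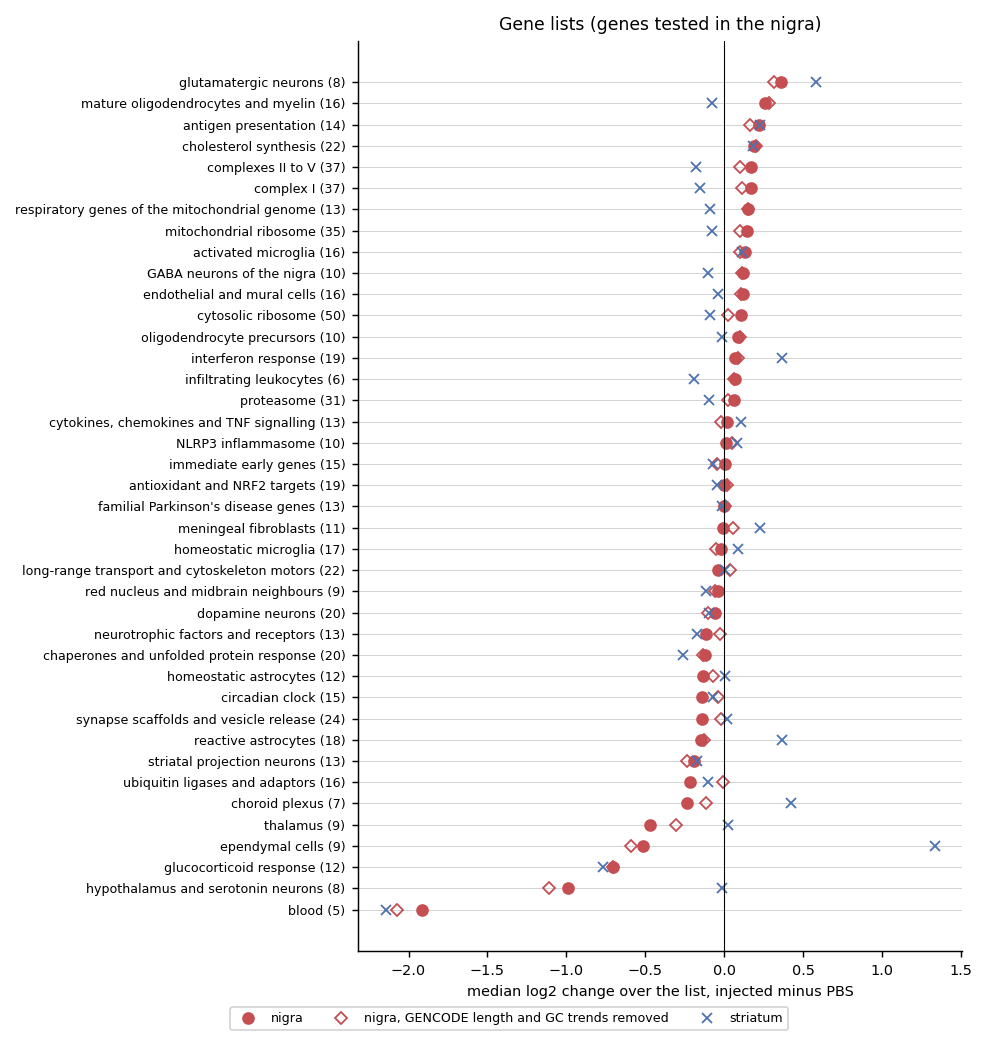
Median log2 change, injected minus PBS, over the tested genes of each list (number in brackets) in the nigra, in the nigra with GENCODE length and GC trends removed, and in the striatum. The cholesterol list lies at 0.19 in the nigra and 0.20 with the trends removed, the ubiquitin ligases at −0.22 and −0.01. Genes of the mitochondrial genome had no GENCODE match and were not adjusted.

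The striatum of the same groups served as the comparison for tissue. There the pooled contrast called 0 of 19115 genes by edgeR, with 2025 at an unadjusted p below 0.05. The change in the nigra differed from that in the striatum in 22 of 18749 genes (0.117%), 12 of them more positive in the nigra. Nigral and striatal libraries share names, but whether a name marks 1 mouse is not stated; with the name as a block, 34 genes were called, of which 12 were among the 22. Of the 259 consistent genes, 7 were among these: Cox5a, Cox5b, Ccdc85b and Metrn were more positive in the nigra, and Megf9, Cfap54 and Dnah5 more negative. With the block 4 of the 7 were called, and Megf9, Ccdc85b and Cfap54 were not (adjusted p = 0.0508, 0.0595 and 0.0595 by edgeR). Megf9 had a log2 change of −0.81 in the nigra and −0.04 in the striatum, where its levels averaged 27.6 CPM in injected and 28.4 CPM in PBS libraries (difference −0.77, SE 0.121, adjusted p = 0.0245 by edgeR). Cox5b had 0.35 in the nigra and −0.42 in the striatum (difference 0.76, adjusted p = 0.0165), and Cox5a 0.33 and −0.28 (difference 0.60, adjusted p = 0.0124). Dnah5, an axonemal dynein of motile cilia, had −0.82 in the nigra and 0.97 in the striatum (difference −1.79, adjusted p = 0.0402), and Cfap54, also of motile cilia, −0.85 and 0.44 (difference −1.30, adjusted p = 0.0402). In the nigra Dnah5 and Cfap54 lost their call in both trend removals. All 9 ependymal genes were negative in the nigra (median −0.52, 0 called by edgeR, 2 by DESeq2, 3 with an unadjusted p below 0.05), while their median in the striatum was 1.33. The nigral level of this list, relative to the PBS mean, was −1.026 to 0.018 in injected and −0.104 to 0.085 in PBS libraries, with TUG469 2 inside the PBS range. With the length trend removed, 0 genes differed between the tissues (1874 at an unadjusted p below 0.05).

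For other genes no difference between tissues was shown: Insig1 had a log2 change of 0.39 in the nigra and 0.24 in the striatum (adjusted p of the difference 0.666 by edgeR). Lnpep had −0.87 and −0.83 (adjusted p = 0.960), and Oprm1 −1.10 and −0.93 (adjusted p = 0.828). None of the striatal values passed. Among the consistent genes, 27 of the 40 higher and 170 of the 219 lower had the same sign in the striatum, where 49.3% of all tested genes were positive.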

How the data were processed

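Per the labels' protocols, stranded mRNA libraries were made from column-purified total RNA. The submitters' processing notes name GRCm38, Cufflinks, STAR 2.7.3a, Trim Galore 0.38 and FastQC 0.11.7, but not how reads of each strand were counted. For each library the authors deposited the raw count of reads per gene and its FPKM, per the file headers, and for the nigra a score (a signed linear fold change) and an adjusted p-value for each comparison; in their table a gene passed at an adjusted p below 0.05. The tables list 20897 genes in the nigra and 20257 in the striatum, and 0 columns belonged to another series.

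Counts were filtered by filterByExpr (minimum count 10, minimum total 15), scaled by TMM and fitted with edgeR 4.0.16 (R 4.3.3) as 3 group means over the 9 nigral libraries. The contrast was the mean of the 2 injected groups minus PBS, adjusted by the Benjamini-Hochberg method over all genes tested. The biological coefficient of variation was 0.135. The tissues were compared in 1 fit of 18 libraries over 18749 genes. Length trends were taken out per library by a smooth fit across genes. Alternatives used DESeq2 1.42.0, limma 3.58.1 on log2(FPKM + 1), other filters and scaling, 2 group means, a replicate block, leaving out each library, and the removal of trends with length. The removal of GENCODE length and GC trends was added after the data were seen. Gene identifiers matched RefSeq for 20844 of 20897 genes. The procedure was tested on simulated counts.

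Named genes were 10 of interest to the study, the 12 largest changes per direction among consistent genes at 1 FPKM or more (predicted genes passed over), up to 4 genes of lowest p in each of the 40 lists with a called member or with nearly all members of 1 sign, and called genes that also differed between the injected groups or between the tissues. The members and lists were chosen with earlier results of these data known. Ffar1 and Il1b are not analysed here, and some genes taken by the rule are not reported here.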

Additional observations from a re-analysis of the deposited data

Results flagged for a closer look

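Of the named genes, 9 had an injected library far from the other 5 by Dixon's ratio at 95%; chance flags about 1 in 20 of the 136 genes examined. TUG469 4 stood high for Aif1 (3.47 CPM, others 1.81 to 2.09), a microglial protein, and for the hypothalamic peptides Avp (1.54 CPM, others 0.134 to 0.408) and Pomc (2.38 CPM, others 0.715 to 1.13). TUG469 1 stood low for Mycbp2 (414 CPM, others 426 to 430). 6-OHDA 4 stood high for Atp5j2 (89.9 CPM, others 80.1 to 82.8) and Prdx5 (185 CPM, others 162 to 167). 6-OHDA 3 stood low for Ndufb7 (44.3 CPM, others 48.1 to 50.5) and Fdft1 (81.1 CPM, others 95.3 to 98.9), and 6-OHDA 2 for the mitochondrial gene COX2 (4200 CPM, others 4760 to 4950).

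Slc6a3 was the only gene that differed between the injected groups, with a log2 change of −2.002 in TUG469 minus 6-OHDA libraries (adjusted p = 0.0203 by edgeR).

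The change differed between nigra and striatum, as log2 change in the nigra minus that in the striatum, by 0.58 for Ndufab1, 0.60 for Cox5a, 0.76 for Cox5b, 0.72 for Ccdc85b and 0.68 for Metrn, and by −0.77 for Megf9, −2.53 for Dnah11, −1.30 for Cfap54 and −1.79 for Dnah5. Ndufab1 and Dnah11 were not called in the nigra itself (adjusted p = 0.0539 and 0.0601 by edgeR).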

How the results depend on the processing

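In the pooled contrast Megf9 kept its direction and its call under every alternative run, with log2 changes of −0.84 to −0.63. The pooled contrast called 1461 genes with DESeq2, 61 with limma, 19 with the length trend removed and 13 with GENCODE length and GC trends removed; the counts of consistent genes were 975, 59, 18 and 13. DESeq2 put 34.6% of its calls higher in injected libraries, limma 37.7% and the GENCODE removal 53.8%, against 15.1% in the main result. GENCODE values were held for 89.3% of genes, and genes without them, among them those of the mitochondrial genome, were left unadjusted. Without 1 library the pooled contrast called 1 to 575 genes and the consistent genes numbered 1 to 527. TUG469 against 6-OHDA gave 91 genes with DESeq2, 0 with limma (1685 at an unadjusted p below 0.05) and 0 to 4 without 1 library. Nigra minus striatum gave 409 with DESeq2, 11 with no filter, 14 with limma, 0 with the length trend removed and 0 to 103 without 1 library. RLE size factors, no filter, a minimum of 50 counts per group mean and 2 group means left the pooled count within 1.5 times. Mycbp2 and Vps13c turned to log2 changes of 0.027 and 0.021 (adjusted p = 0.819 and 0.857) with the GENCODE trends removed. Apart from the trends removed by construction, the cause was not tested.

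The replicate numbers were not taken to pair the samples: the correlation of deviations was −0.222 for 6-OHDA 4 with TUG469 4 and −0.173 for TUG469 1 with PBS 1, against 0.340 for TUG469 2 with PBS 2, 0.228 for 6-OHDA 2 with TUG469 2, 0.171 for 6-OHDA 3 with PBS 3 and 0.0954 for 6-OHDA 2 with PBS 2, and between nigra and striatum of the same name it ran from −0.014 to 0.271, with 6 of 9 libraries most like their own. A fit with the replicate number as a block called 1 gene in the pooled contrast, consistent in both groups, and 3 between TUG469 and 6-OHDA. With the library name as the block, 34 genes were called between the tissues, 12 of them among the 22 called without it.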
